A study of Mus musculus with 36 samples.

Results

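The genes described here are 8 heat shock genes (Hspa1a, Hspa1b, Hspa8, Hsp90aa1, Hsph1, Dnajb1, Hspb1 and Hspe1) and the cold-inducible RNA-binding genes Cirbp and Rbm3, followed through the day in mouse liver with and without functional thyroid hormone receptor beta (THRB). They were taken by their symbols from a table of 54532 genes, in which all 10 were found. All 10 also passed the filter on low counts and were among the 17994 genes tested. The data were 36 liver RNA-seq libraries from male mice aged 2 to 3 months. Control mice (THRB WT) were THRB+/- heterozygotes, so they too carried the altered allele, and knockout mice (THRB KO) were THRB-/-. The allele impairs DNA binding by both THRB isoforms in every tissue, and the line (B6.129S1-Thrbtm1Df/J) was bred on C57Bl/6NCrl. All mice were fed chow under 12 h of light and 12 h of darkness, and 3 mice per genotype, lettered a, b and c, were sampled every 4 h from ZT2 to ZT22, where ZT0 stands for lights on (zeitgeber time, in hours).

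Heat shock genes encode chaperones, proteins that help others to fold, to refold after damage or to be passed on for degradation. Many of them are switched on by heat shock factor 1 (HSF1), which binds DNA sequences made of inverted GAA and TTC units (heat shock elements) when unfolded proteins accumulate or temperature rises. Cirbp and Rbm3 encode small RNA-binding proteins that cells make in larger amounts when they are mildly cooled. Mouse body temperature is higher at night, when mice are active. In liver, HSF1 activity is known to rise with body temperature and Cirbp RNA to run opposite to it. Body temperature and food intake of these mice were not analysed here.

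Total counts ranged from 29063273 to 39913574 per THRB WT library and from 31008555 to 42530551 per THRB KO library. Values are given as CPM (counts scaled by edgeR to a common library size, with TMM factors). Markers of hepatocytes, the main cells of liver, were high in every library (summed level of 6 genes from 65213 to 97454 CPM). Of 6 markers of the exocrine pancreas, Cpa1, Prss2 and Pnlip were at 0 in 35 of 36 libraries and Ctrb1 in 30, while Cela2a (0.0293 to 0.822 CPM) and Cela1 (12.9 to 45.9 CPM) were at 0 in none. In bulk liver, fewer cells of a type and less RNA per cell cannot be told apart.

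The 10 genes differed widely in level. Scaled for gene length, Hspa8 had 275 CPM per kb in THRB WT livers, Hspe1 122, Hsp90aa1 62.4 and Hspb1 48.9. Cirbp, Hspa1b, Hsph1, Dnajb1 and Rbm3 lay close together, from 7.66 to 11.9 CPM per kb, and Hspa1a had 0.360. The order was the same in THRB KO livers except that Hsph1 and Dnajb1 stood before Hspa1b there. Hspa1a, with 5 to 144 raw counts per library and 1097 in all, is the least certain of the members. It encodes nearly the same protein as its neighbour Hspa1b (31094 counts in all), and their transcripts were identical at 99.2% of 2201 aligned bases. How reads that match both were counted is not given in the sources used here. Hspa1a also shares 564 exonic bases (19.0%) with Gm20481 on the opposite strand in libraries that do not mark strand. Its values are therefore set beside those of Hspa1b and may not be independent of them. Counts and correlations of members below still include Hspa1a. Hspe1 shares 112 exonic bases (7.60%) with Hspd1 in the same way. Counts of near-identical pseudogenes amounted to 1.34% of those of Hsp90aa1 (3 copies) and 5.98% of those of Rbm3 (4 copies).

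To show the sequences through which HSF1 is known to act, the 250 bases before each gene start were searched in RefSeq promoters (GRCm38.p6), which held 7 of the members (not Hspa8, Hsp90aa1 or Rbm3). The motif searched was GAANNTTC or TTCNNGAA, a pair of inverted units read on both strands, and the longer form of 3 units in a row. A pair was present in 5 of the 7 members (71.4%) and in 14.5% of 27025 genes with a promoter in the table. The form of 3 units was present in Hspe1 alone, against 0.514% of all genes. Neither Cirbp nor Dnajb1 held a pair in this window, which says only that these letters are not there. The windows below are 30 bases long, with the matched units and the bases between them in capitals.
Hspe1 (chr1:55088053-55088082, plus strand, 89 to 72 bases before the start): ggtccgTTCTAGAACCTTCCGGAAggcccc
Hspa1b (chr17:34959324-34959353, minus strand, 104 to 97 bases before the start): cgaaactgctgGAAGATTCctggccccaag
Hspb1, first (chr5:135887791-135887820, plus strand, 117 to 110 bases before the start): cttcaacaagaGAAGTTTCcagatgggggc
Hspb1, second (chr5:135887811-135887840, plus strand, 97 to 90 bases before the start): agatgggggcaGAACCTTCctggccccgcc
Hsph1 (chr5:149636351-149636380, minus strand, 33 to 26 bases before the upstream and 54 to 47 before the downstream of its 2 starts): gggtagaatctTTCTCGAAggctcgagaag
The Hspe1 window holds 4 units in an unbroken row of alternating direction, which overlap as 3 pairs. The Hspa1a window (chr17:34972242-34972271, minus strand) has the same letters as that of Hspa1b. Over the whole 250 bases, the promoters of these neighbours differed at 3 positions (T44C, C47T and G249T, the Hspa1b base first, counted from the upstream end). The 250 bases of Hspa1b (chr17:34959239-34959488, minus strand) are given because this gene has more counts than its neighbour, though reads that match both may affect the counts of either. The sequence holds the base of Hspa1b at each of these positions.
Hspa1b promoter: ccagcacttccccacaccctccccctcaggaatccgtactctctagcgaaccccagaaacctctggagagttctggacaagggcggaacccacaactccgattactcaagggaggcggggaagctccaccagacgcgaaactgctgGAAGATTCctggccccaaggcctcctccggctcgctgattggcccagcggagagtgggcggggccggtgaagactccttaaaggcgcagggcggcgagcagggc

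RNA of most heat shock genes was higher in mean over the dark times than over the light times, and Cirbp ran the other way. Hspa1b, Hspa8 and Dnajb1 in both genotypes, and Hspa1a in THRB WT livers, were highest in mean at ZT14 and lowest at ZT22. For these genes the dark times thus hold both the highest and the lowest mean. In THRB WT livers all 10 members differed between sampling times (10 of 10, against 26.4% of all tested genes), and in THRB KO livers 9 of 10 did (24.9% of all). The exception was Cirbp in THRB KO livers (adjusted p = 0.116). Unless named otherwise, p-values come from quasi-likelihood tests in edgeR, adjusted after Benjamini and Hochberg over all tested genes, and a gene passed when its adjusted p was under 0.05. Nothing in the labels says that the 3 mice of a group came from separate litters or days, so the p-values measure the spread between these mice.

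**Figure D1:**
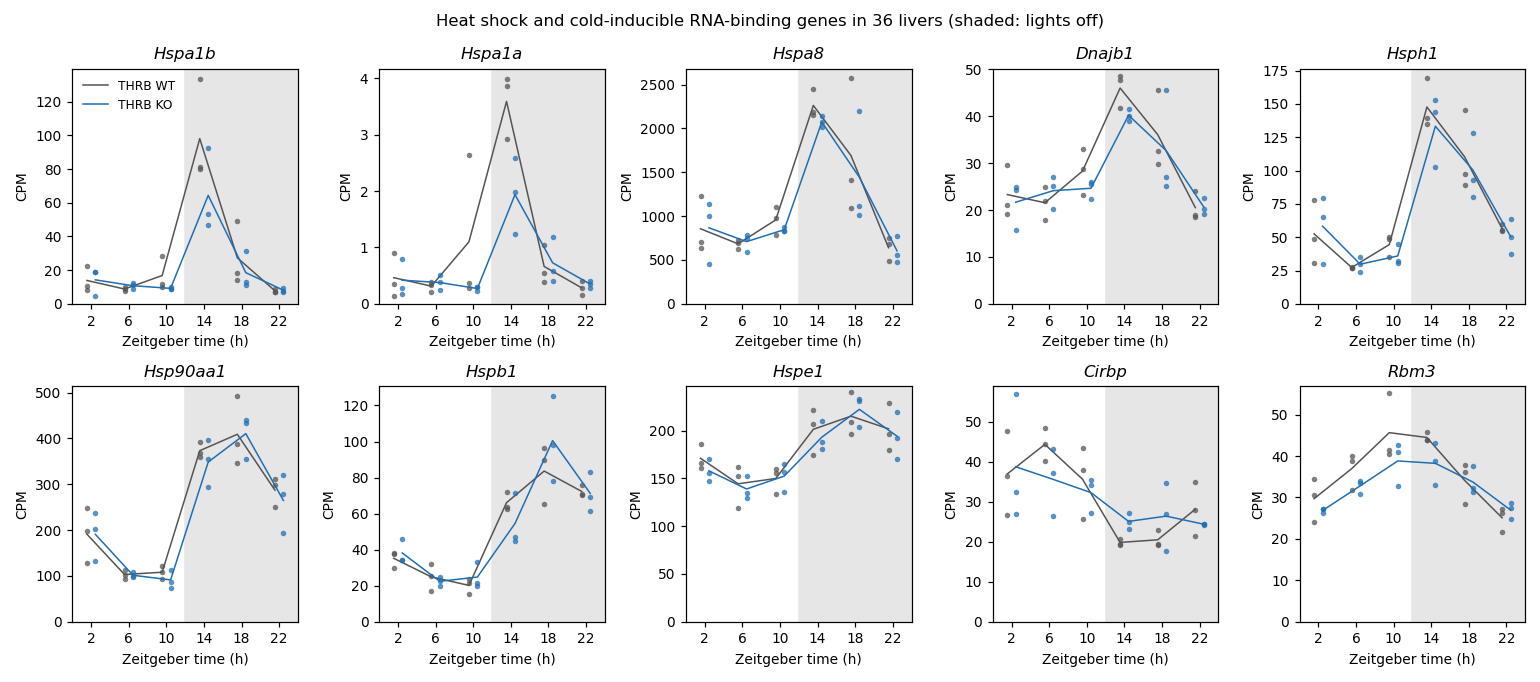
CPM of the 10 genes in each of the 36 livers against zeitgeber time in hours, with grey points for THRB WT mice, blue points for THRB KO mice, lines through the means of 3 mice and shading for lights off. Hspa1b rises to between 47.1 and 133 CPM at ZT14 in both genotypes, above all mice of the other times in its genotype, while Cirbp is lowest in the dark phase.

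The heat-inducible HSP70 genes had the sharpest pattern. Hspa1b (chr17:34956436-34959238) encodes an HSP70 chaperone that most cells make only under stress. In THRB WT mice it had 79.8, 133 and 81.2 CPM at ZT14, and 7.10, 8.98 and 7.20 CPM at ZT22. In THRB KO mice it had 53.3, 92.8 and 47.1 CPM at ZT14, and 7.07, 9.68 and 7.51 CPM at ZT22. In each genotype the 3 mice of ZT14 lay above the 15 mice of all other times, which did not exceed 49.0 CPM in THRB WT livers and 31.5 CPM in THRB KO livers. The mean at ZT14 was 12.6 times that at ZT22 in THRB WT livers and 7.96 times that in THRB KO livers, and the effect of time had an adjusted p of 8.2e-07 and 1.9e-05. Below ZT14, the order was ZT18, ZT10, ZT2, ZT6 and ZT22 in THRB WT mice, and neighbouring times in it overlapped. Hspa1a followed the same course at a lower level, with 2.92, 3.87 and 3.98 CPM at ZT14 in THRB WT mice and 2.59, 1.99 and 1.23 CPM in THRB KO mice. Its other times lay between 0.147 and 2.65 CPM.

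Hspa8 (chr9:40800984-40810087) encodes HSC70, the HSP70 chaperone present in cells at all times, and Dnajb1 (chr8:83608193-83612653) a co-chaperone of the DNAJ family that drives the ATP cycle of HSP70. Hspa8 had 2187, 2155 and 2444 CPM at ZT14 and 490, 681 and 748 CPM at ZT22 in THRB WT mice. In THRB KO mice it had 2013, 2069 and 2139 CPM at ZT14 and 480, 561 and 772 CPM at ZT22. The ranges of ZT14 and ZT22 were far apart in both genotypes, with means that differed 3.54-fold and 3.43-fold. ZT18 was uneven, since mouse a had 2576 CPM in THRB WT livers and 2199 CPM in THRB KO livers, while mice b and c had 1090 and 1408 CPM and 1018 and 1112 CPM. Dnajb1 had 47.7, 41.8 and 48.6 CPM at ZT14 in THRB WT mice, against 19.0, 24.1 and 18.6 CPM at ZT22, and 40.1, 39.0 and 41.6 CPM against 19.2, 20.1 and 22.6 CPM in THRB KO mice. As in Hspa8, its highest value outside ZT14 was that of mouse a at ZT18, 45.7 CPM in each genotype.

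Hsph1 (chr5:149614287-149636376) encodes an HSP110 chaperone, which exchanges the nucleotide of HSP70. It had 139, 169 and 135 CPM at ZT14 in THRB WT mice and 26.8, 27.8 and 27.3 CPM at ZT6, its lowest time, where the 3 mice lay below the 15 others. In THRB KO mice the values were 103, 153 and 144 CPM at ZT14 and 35.0, 24.1 and 30.2 CPM at ZT6. The means of these times differed 5.41-fold and 4.48-fold.

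Hsp90aa1, Hspb1 and Hspe1 kept high levels longer into the night. Hsp90aa1 (chr12:110690605-110702728) encodes the inducible form of HSP90, a chaperone of kinases and steroid receptors. Its level was highest at ZT18, with 493, 388 and 347 CPM in THRB WT and 435, 441 and 355 CPM in THRB KO mice, and still 250 to 312 CPM and 193 to 321 CPM at ZT22. At ZT10 it had 121, 94.0 and 109 CPM and 73.3, 113 and 87.5 CPM. Hspb1 (chr5:135887919-135889563), a small heat shock protein that holds unfolded proteins in solution, had 96.1, 89.6 and 65.1 CPM at ZT18 in THRB WT mice and 78.3, 125 and 98.2 CPM in THRB KO mice. Its values at ZT10 were 21.7, 15.2 and 23.6 CPM and 21.4, 19.6 and 33.3 CPM, so that the ranges of ZT18 and ZT10 were apart in both genotypes. Hspe1 (chr1:55088132-55091307), the HSP10 cap of the mitochondrial HSP60 chaperonin, changed least among the heat shock genes, from a mean of 144 ± 22.5 CPM (SD, n = 3) at ZT6 to 215 ± 22.6 CPM at ZT18 in THRB WT mice and from 139 ± 12.2 to 222 ± 16.3 CPM in THRB KO mice.

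The RNA-binding genes followed neither course. Cirbp (chr10:80165985-80172786) had 40.2, 44.4 and 48.4 CPM at ZT6 and 19.5, 19.3 and 20.7 CPM at ZT14 in THRB WT mice, with no overlap. In THRB KO mice it had 37.3, 43.1 and 26.4 CPM at ZT6 and 23.3, 24.9 and 27.1 CPM at ZT14, and these ranges overlapped. Its values at ZT2 were spread more widely than at any other time, from 26.8 to 47.8 CPM and from 27.0 to 56.9 CPM. Rbm3 (chrX:8138975-8145880) was highest in mean at ZT10, with 40.4, 41.4 and 55.1 CPM in THRB WT and 32.8, 41.0 and 42.7 CPM in THRB KO mice. These ranges overlapped those of ZT14 in each genotype. Its mean was lowest at ZT22 in THRB WT mice (27.3, 26.3 and 21.7 CPM) and at ZT2 in THRB KO mice (27.2, 27.1 and 26.2 CPM). THRB KO mice had 24.8, 27.5 and 28.6 CPM at ZT22, and the ranges of ZT2 and ZT22 overlapped in each genotype. Rbm3 thus passed its highest level around the end of the light phase, when Cirbp was already falling in mean, and the effect of time on Rbm3 had an adjusted p of 6.5e-05 in THRB WT livers and 0.0060 in THRB KO livers.

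To put a size on the day-night difference, the mean of the dark times was set against that of the light times on the log2 scale. In THRB WT livers 7 members were higher in the dark (10.5% of all genes were) and Cirbp was lower (11.4% of all). In THRB KO livers 8 were higher (9.09% of all) and Cirbp was lower (9.64% of all). The gene added there was Hspa1a (adjusted p = 0.035, against 0.23 in THRB WT livers). Hsp90aa1 was higher by 1.45 (standard error 0.122, adjusted p = 1.8e-09) in THRB WT livers and 1.47 (standard error 0.122, adjusted p = 2.1e-09) in THRB KO livers. Hspb1 had 1.50 and 1.40, Hsph1 1.28 and 1.15, Hspa1b 1.11 and 0.92 and Hspa8 0.71 and 0.60. Dnajb1 and Hspe1 showed the smallest of the called increases, 0.42 and 0.36 for the former and 0.41 and 0.44 for the latter. Cirbp fell by 0.78 (standard error 0.141, adjusted p = 1.5e-04) in THRB WT livers and by 0.49 (standard error 0.140, adjusted p = 0.0137) in THRB KO livers. Rbm3, whose peak lay at the border of light and dark, had -0.13 (standard error 0.079) and 0.01 (standard error 0.079), neither past the threshold. The median over the 10 members was 0.69 and 0.76, against 0.01 over all genes in each genotype. Leaving out letters a, b and c in turn, 9, 5 and 6 members passed in THRB WT livers in place of 8, and 6, 4 and 5 in THRB KO livers in place of 9.

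**Figure D2:**
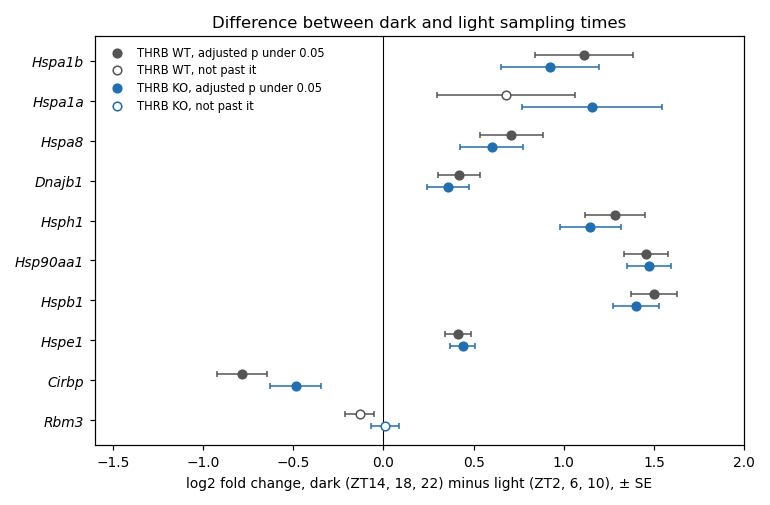
Log2 fold change between dark and light sampling times for each gene, with standard errors, in grey for THRB WT and blue for THRB KO livers; filled points have an adjusted p under 0.05. The values reach 1.50 for Hspb1, lie below 0 for Cirbp and near 0 for Rbm3, and the genotypes lie side by side.

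Beside these differences, a few markers of other cell types also differed between dark and light. Of all genes 10.5% were higher and 11.4% lower in the dark in THRB WT livers, and 9.09% and 9.64% in THRB KO livers. In THRB WT livers 2 of 6 endothelial, 1 of 6 stellate and mural, and 2 of 5 cholangiocyte markers were higher in the dark, and 1 of 2 tested pancreatic acinar markers was lower, while 0 of 6 hepatocyte, 0 of 6 Kupffer cell, 0 of 5 lymphocyte, 0 of 2 tested neutrophil and 0 of 5 erythroid markers passed. In THRB KO livers 0 endothelial, 1 stellate and mural, 2 cholangiocyte and 1 hepatocyte marker were higher, 1 neutrophil and 1 pancreatic acinar marker were lower, and no Kupffer cell, lymphocyte or erythroid marker passed. Summed endothelial markers ranged from 78.1 to 151 CPM in the light and from 110 to 166 CPM in the dark in THRB WT livers, and from 99.6 to 157 CPM and from 97.4 to 187 CPM in THRB KO livers. Their part in the differences of the heat shock genes was not tested.

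Of the steps between neighbouring times, averaged over both genotypes (6 mice against 6), the one across lights off had the most members past the threshold. For Hspa8 and Dnajb1 the later fall from ZT18 to ZT22 was about as large (-1.33 and -0.74). From ZT10 to ZT14, 8 members rose (9.51% of all genes did) and Cirbp fell (9.11% of all). Hspa1b rose by 2.67 on the log2 scale (standard error 0.341, adjusted p = 2.3e-06), Hspa1a by 2.24, Hsp90aa1 by 1.86, Hsph1 by 1.81, Hspb1 by 1.42, Hspa8 by 1.27, Dnajb1 by 0.70 and Hspe1 by 0.38. Cirbp fell by 0.60 (standard error 0.172, adjusted p = 0.0126), a call that was lost without letter b (adjusted p = 0.10) or c (adjusted p = 0.0503). Rbm3 had -0.03 (standard error 0.096). Beside these changes, 3 of 5 erythroid, 1 of 5 lymphocyte and 2 of 2 tested pancreatic acinar markers fell and 1 of 5 cholangiocyte markers rose, and their part was not tested. From ZT14 to ZT18 Hspa1b and Hspa1a fell by 1.82 and 1.92 (3.12% of all genes fell), while Hspb1 rose further by 0.61 (standard error 0.155, adjusted p = 0.0159; 3.0% of all genes rose). None of these passed without letter b, and 1 passed without letter c.

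From ZT18 on through the light phase the steps were less firm, and only that from ZT22 to ZT2 spanned lights on. From ZT18 to ZT22, 6 members fell (0.5% of all genes did), namely Hspa8, Hspa1b, Hsph1, Dnajb1, Hsp90aa1 and Rbm3, with log2 fold changes from -1.50 to -0.38. This count was 0 without letter a, 0 without letter b and 0 without 3 mice (THRB WT ZT10 a and the 2 mice a of ZT18). These 3 were chosen after the data were seen and had high Hspa1b for their group, by 0.91 to 1.05 in log2 CPM. Other mice that stood apart were kept, among them THRB KO ZT2 c, the farthest from its group in Hspa1b (-1.31), and THRB WT ZT2 a (0.83). From ZT22 to ZT2 Hspb1 fell by 0.97 (adjusted p = 8.3e-04; 0.75% of all genes fell), and without letter a no member passed. From ZT2 to ZT6 Hsp90aa1, Hsph1 and Hspb1 fell by 0.90, 0.96 and 0.63 (5.15% of all genes fell) and Rbm3 rose by 0.30 (6.48% of all rose), with 1 or 2 of these 4 passing when a letter was left out. Between ZT6 and ZT10 no member passed in edgeR's test (0 of 10, against 7.52% of all genes, and 0 in DESeq2). At an unadjusted p under 0.05 there were 2 members, against 19.2% of all genes.

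Fitting a 24-h sine curve ordered the members by peak time, here on counts transformed to stabilize their variance (vst, close to a log2 scale). In THRB WT livers Cirbp peaked at ZT 5.01 ± 0.661 (SE, in h) and Rbm3 at 11.3 ± 0.479. Hspa1a, Hspa1b, Dnajb1 and Hspa8 followed just after lights off, between 13.7 and 14.9, with standard errors from 0.716 to 0.897 h. Hsph1 peaked at 16.7 ± 0.658, and Hsp90aa1, Hspe1 and Hspb1 at 18.4 ± 0.467, 18.7 ± 0.583 and 19.0 ± 0.369. In THRB KO livers the order of these blocks was the same, with Cirbp at 5.43 ± 1.25, Rbm3 at 12.1 ± 0.692, the HSP70 genes and Dnajb1 between 14.4 and 15.2, Hsph1 at 16.99 ± 0.760 and the last block between 18.2 and 19.1. Within a block the standard errors overlapped in THRB WT livers, and differences between genes were not tested. Times 4 h apart and a fixed curve shape limit how closely a sharp peak such as that of Hspa1b can be placed.

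**Figure D3:**
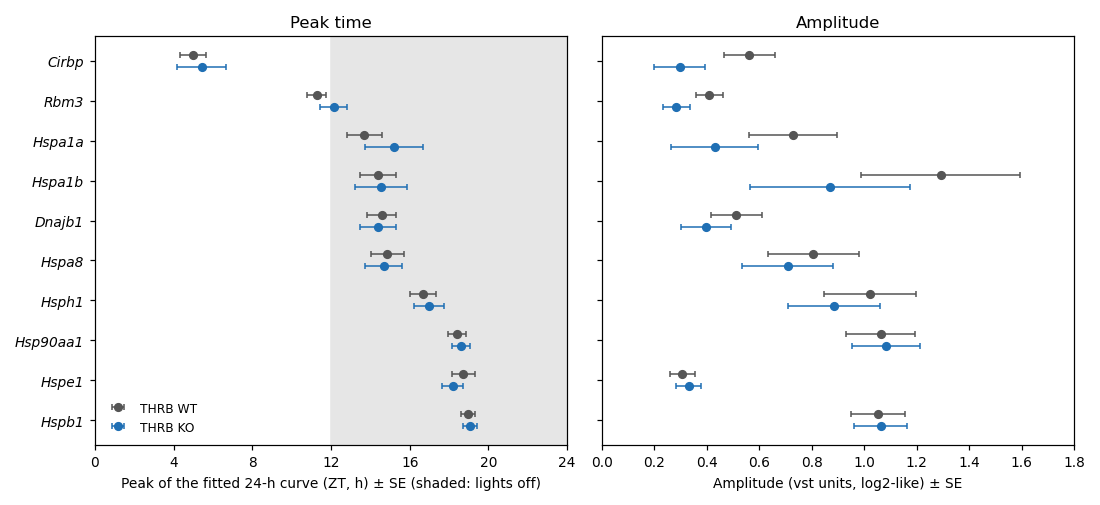
Peak time in zeitgeber hours and amplitude in vst units of the 24-h curve fitted to each gene, with standard errors, in grey for THRB WT and blue for THRB KO livers. Peaks run from 5.01 for Cirbp to 19.0 for Hspb1 in THRB WT livers, and the standard errors of the genotypes overlap in peak time for each gene.

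The amplitudes ranged from 0.31 for Hspe1 to 1.29 for Hspa1b in THRB WT livers and from 0.28 for Rbm3 to 1.08 for Hsp90aa1 in THRB KO livers. In edgeR's test of sine and cosine terms all 10 members had a 24-h rhythm in THRB WT livers (35.1% of all genes) and all 10 in THRB KO livers (31.5% of all), the latter falling to 6 without letter c. By the cosinor F test on vst values at an unadjusted p under 0.01, 10 members were rhythmic in THRB WT (31.2% of all) and 7 in THRB KO livers (28.3% of all). Those outside it in THRB KO livers were Hspa1a, Hspa1b and Cirbp.

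Across the 12 group means, the genes fell into the same blocks, given here as a description since these means share libraries and sampling times. Hspa1a, Hspa1b, Hspa8 and Dnajb1 had Pearson's r from 0.90 to 0.98 with one another, and Hsp90aa1, Hspb1 and Hspe1 from 0.95 to 0.97, while r between the first and the second block was from 0.33 to 0.61. Hsph1 went with both (r from 0.76 to 0.90). Cirbp had a negative r with every heat shock gene, from -0.62 to -0.85, but -0.10 with Rbm3. Rbm3 had r from 0.58 to 0.67 with the first block, from -0.33 to -0.18 with the second and 0.20 with Hsph1. Among 12632 genes with a mean of at least 1 CPM, those with group means most like Hsph1 were Chordc1 (r = 0.994), an HSP90 co-chaperone, Nck1 (r = 0.987) and Piga (r = 0.981), and the most opposite were Pigc (r = -0.971) and Spg21 (r = -0.969). Those most like Cirbp were Abca8b (r = 0.963), Rab2a (r = 0.961) and Ccdc9 (r = 0.957), and the most opposite were Letmd1 (r = -0.971) and Rpp38 (r = -0.961), each over 12 group means.

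Loss of THRB changed none of these genes past the threshold. With sampling time in the model, 0 of the 10 members passed in edgeR's test, where 0.95% of all genes did, and 0 members passed in DESeq2. At an unadjusted p under 0.05 in edgeR's test there was 1 member, against 12.1% of all genes. With times pooled 0 members passed as well, where 0.361% of all genes did. Rbm3 had the lowest p, at 36.01 ± 8.70 CPM in THRB WT against 32.9 ± 5.70 CPM in THRB KO livers (SD, n = 18 each). Its log2 fold change was -0.11 (95% interval -0.23 to -0.0018, adjusted p = 0.40), and its mean was lower without THRB at 5 of the 6 times. Hspa1b had 28.8 ± 35.1 CPM and 20.9 ± 22.6 CPM (SD, n = 18 each). This was -0.29 on the log2 scale, and the 95% interval ran from -0.68 to 0.10. For Hspa1a the log2 fold change was -0.46, with the widest interval, from -1.04 to 0.12. Without letter a these values were -0.11 and -0.10. The intervals of Hspa8 (-0.32 to 0.14), Hsp90aa1 (-0.24 to 0.08), Hsph1 (-0.31 to 0.15), Dnajb1 (-0.24 to 0.08), Hspb1 (-0.15 to 0.22), Hspe1 (-0.13 to 0.06) and Cirbp (-0.19 to 0.22) all included 0, and changes within these limits cannot be told from no change in these mice.

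**Figure D4:**
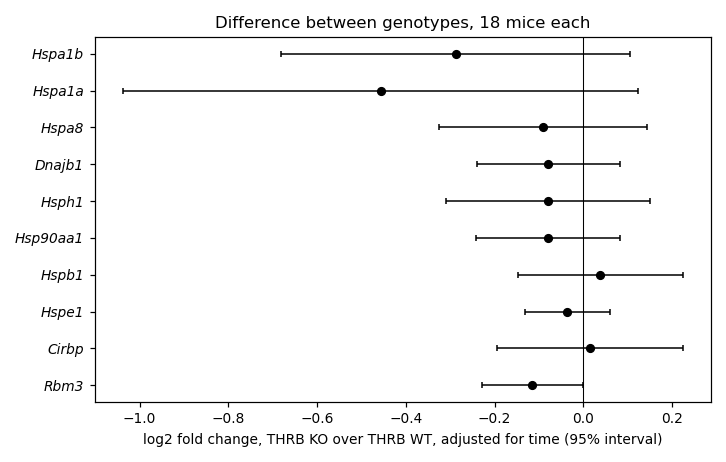
Log2 fold change of THRB KO over THRB WT livers adjusted for sampling time, with 95% intervals, for the 10 genes in 18 mice per genotype. The interval of Rbm3 ends just below 0, all others include 0, and that of Hspa1a is the widest.

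Nor did the genotype effect vary with time past the threshold. In edgeR's test of the 5 interaction terms 0 of 17994 genes (0.0%) passed, members included, with 484 genes and 0 members at an unadjusted p under 0.05, and 0 genes in DESeq2. The difference of the dark-light contrasts gave 0 genes in edgeR (551 at an unadjusted p under 0.05, 0 of them members) and 2 genes, no member, in DESeq2. The test of sine and cosine terms between genotypes gave 0 genes in edgeR (553 at an unadjusted p under 0.05, 0 members) and 0 in DESeq2. At ZT2, ZT6, ZT10, ZT14, ZT18 and ZT22 alone 0.0278%, 0.0111%, 0.0167%, 0.0167%, 0.0222% and 0.0222% of all genes passed. Among them was no member in either tool (0 at each of the 6 times). In edgeR 1 member had an unadjusted p under 0.05, Hspa1a at ZT10, where 4.12% of all genes did. At that time THRB WT mouse a had 2.65 CPM of Hspa1a and the other 5 mice had 0.227 to 0.373 CPM.

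At ZT14 the ranges of the genotypes did not overlap for 5 of the 10 members, against 10.2% of all tested genes at that time. The members were measured in the same mice and are not separate observations. Of these 5, Hspa1a, Hspa8, Dnajb1 and Cirbp each correlated with Hspa1b between mice of a group, as given below. Hspa1a, Hspa8, Dnajb1 and Rbm3 were lower in each THRB KO mouse than in each THRB WT mouse, and Cirbp was higher. For Hspa8 the highest THRB KO value was 2139 CPM and the lowest THRB WT value 2155 CPM. Rbm3 had 45.8, 43.9 and 43.8 CPM in THRB WT and 32.9, 38.8 and 43.03 CPM in THRB KO mice. The log2 fold changes of these 5 genes at ZT14 were -0.90, -0.13, -0.19, -0.22 and 0.34, with adjusted p-values from 0.940 to 0.980. Over the other 5 times, where from 7.95% (ZT10) over 8.41% (ZT6), 9.94% (ZT22) and 10.4% (ZT18) to 12.9% (ZT2) of all genes had ranges apart, this held once among the members, for Hspa1b at ZT10, with 28.4, 10.2 and 11.8 CPM in THRB WT and 8.83, 9.97 and 8.81 CPM in THRB KO mice.

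Rhythm parameters were compared as in CircaCompare, by a joint cosinor on vst values with a threshold of 0.05 on the unadjusted p. Mesor, the mean level of the curve, differed for 1 member, Rbm3 (-0.11, 95% interval -0.21 to -0.00039), where 11.2% of all genes differed, and for 0 members on log2 CPM or without letters a or b. Amplitude differed for 0 members (1.79% of all genes) and peak time for 0 (4.55% of 3934 genes with a rhythm in both genotypes). The fitted amplitude was lower in THRB KO livers for 7 of 10 members. No share over all genes was taken for this count, and it is not read as a result. The largest differences in units of their standard error were those of Cirbp (0.56 against 0.30, difference -0.27, standard error 0.138) and Rbm3 (0.41 against 0.28, difference -0.13, standard error 0.073). For the 7 members rhythmic in both genotypes the peak time differed by 0.102 to 0.874 h in size, with standard errors from 0.519 to 1.24 h.

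Mice of the same genotype and time also differed from one another, and Hspa1b, Hspa8, Hsph1 and Dnajb1 did so together. Each gene's log2 CPM was taken as a deviation from its group mean, and 10 pairs of genes were compared over the 36 mice by permuting mice within groups (two-sided permutation tests, 100000 resamples, Benjamini-Hochberg adjustment over the 10 pairs). The group means remove genotype and time. No share of all genes that go with Hspa1b in this way was taken, so the correlations are not read as particular to the members. Hspa1b went with Hspa8 (r = 0.83, permutation p = 0.00078, adjusted p = 0.0036; rho = 0.71, permutation p = 0.0013, adjusted p = 0.0046), Dnajb1 (r = 0.78, adjusted permutation p = 0.0036; rho = 0.71) and Hsph1 (r = 0.71, adjusted permutation p = 0.0059; rho = 0.64). Hspa1a had r = 0.63 (adjusted permutation p = 0.018; rho = 0.64) and Hsp90aa1 r = 0.51 (adjusted permutation p = 0.043; rho = 0.43, adjusted permutation p = 0.058). Cirbp went the opposite way, with r = -0.73 (permutation p = 0.00093, adjusted p = 0.0036) and rho = -0.69 (permutation p = 0.00053, adjusted p = 0.0046).

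The correlations did not extend to every member. Hspb1 (r = -0.07), Hspe1 (r = 0.23) and Rbm3 (r = 0.19) did not pass (adjusted permutation p = 0.81, 0.27 and 0.49), and Cirbp with Rbm3 gave r = -0.02 (adjusted permutation p = 0.94). Without the 2 mice farthest from the median of Hspa1b (THRB KO ZT2 c and THRB WT ZT18 a), r was 0.75 with Hspa8, 0.72 with Dnajb1, 0.61 with Hsph1, 0.65 with Hspa1a, -0.71 with Cirbp and 0.37 with Hsp90aa1. Mice with the same letter and time in the 2 genotypes tended to deviate alike over all genes, so the 36 mice may not be independent. When letters were permuted together in both genotypes, an added check, 5 pairs passed, with larger p-values, and Hsp90aa1 did not (adjusted permutation p = 0.089). For r with Hspa1b the adjusted permutation p was then 0.023 for Hspa8, Dnajb1 and Hsph1, 0.029 for Hspa1a and 0.013 for Cirbp. With a whole letter left out, 0, 1 and 0 pairs passed without a, b and c, with r from 0.66 to 0.89 for Hspa8 and from -0.66 to -0.65 without a or c for Cirbp.

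**Figure D5:**
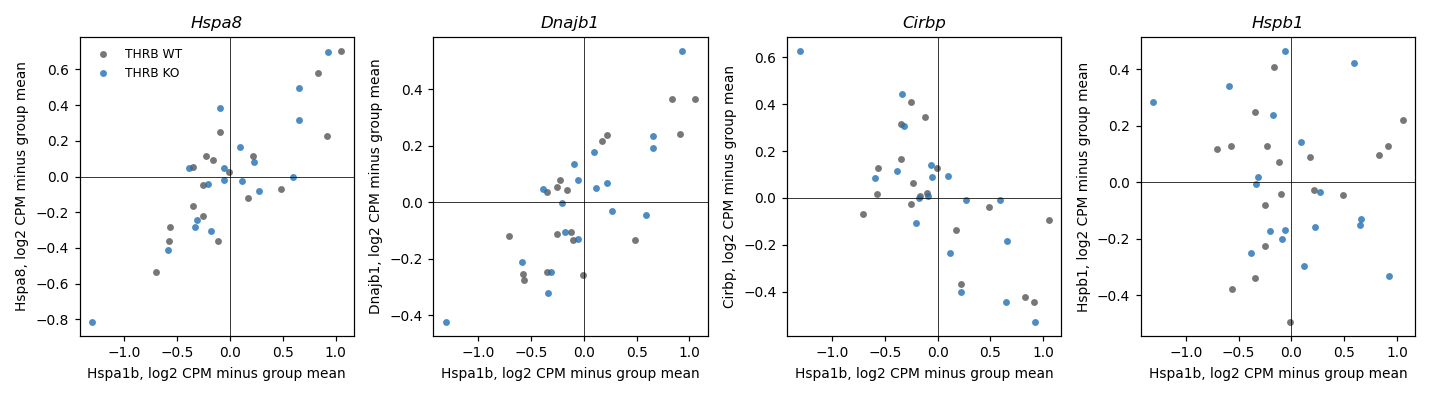
Deviation of each of the 36 mice from its group mean in log2 CPM, Hspa1b on the horizontal axis and Hspa8, Dnajb1, Cirbp or Hspb1 on the vertical axis, grey for THRB WT and blue for THRB KO. Hspa8 and Dnajb1 rise with Hspa1b (r = 0.83 and 0.78), Cirbp falls (r = -0.73), and Hspb1 shows no slope (r = -0.07).

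Other chaperone genes were listed with earlier results of these data known. Of 72 tested genes in 7 lists, 42 differed between times in THRB WT livers and 43 in THRB KO livers (26.4% and 24.9% of all genes). In the dark 33 were higher and 6 lower in each genotype. Of all genes 10.5% and 9.09% were higher and 11.4% and 9.64% lower (THRB WT and THRB KO livers), shares that also stand beside the lists below. Between genotypes 0 of the 72 differed in edgeR's test with time in the model (0.95% of all genes), and 0 in DESeq2. At an unadjusted p under 0.05 in edgeR there were 7, against 12.1% of all genes. The median dark-light difference of the 72 genes in THRB WT livers was 0.14. From ZT10 to ZT14, 34 rose and 5 fell (9.51% and 9.11% of all genes). Of 9 chaperonin genes, which encode the HSP60 and TRiC folding chambers, 7 were higher in the dark in THRB WT livers and 8 in THRB KO livers, none lower, with log2 fold changes of 0.43 and 0.48 for Cct3 and 0.25 and 0.30 for Cct7. Of 3 other HSP90 genes 2 were higher in each genotype, Hsp90ab1 (0.61 and 0.61), the constitutive cytosolic form, and Hsp90b1 (0.50 and 0.45), the form of the endoplasmic reticulum.

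Of 11 other HSP70 and HSP110 genes 4 were higher in the dark in THRB WT livers and 5 in THRB KO livers, among them Hspa4l (1.12 and 1.25) and Hspa5 (0.93 and 0.85), the chaperone of the endoplasmic reticulum. Of 18 other DNAJ genes 9 and 7 were higher and 2 and 1 lower, with 0.54 and 0.48 for Dnaja1. Of 21 other co-chaperones 9 and 10 were higher and 3 and 4 lower. The 3 with the lowest p for time in THRB WT livers were Stip1 (0.75 and 0.79), which links HSP70 with HSP90, Fkbp4 (0.71 and 0.69) and Fkbp5 (0.83 and 0.87). Of 5 tested other small heat shock genes 2 and 1 were higher, Hspb8 with 0.43 and 0.31, and 1 was lower in each genotype, Hspb11 with -0.35 and -0.50. The list of heat shock factors and their regulators had 0 of its 5 genes past the threshold between dark and light in edgeR's test in either genotype, and 0 in DESeq2 in each. At an unadjusted p under 0.05 in edgeR there were 0 in THRB WT livers and 1 in THRB KO livers, against 32.7% and 30.3% of all genes. Hsf1, named here after its values were seen, had a dark-light difference of 0.07 (standard error 0.063) and 0.0032 (standard error 0.063) on the log2 scale. Hsf4 alone among them differed between times.

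Clock genes placed the sampling times. Arntl, a clock activator that peaks around the end of the night, had a dark-light difference of 1.60 in THRB WT livers and 1.49 in THRB KO livers, and Dbp, a clock output gene of the late light phase, -2.20 and -1.63. Of 25 splicing and RNA-binding genes, the list closest in function to Cirbp and Rbm3, 5 were higher and 9 lower in the dark in THRB WT livers, and 5 and 2 in THRB KO livers. Of all genes 10.5% were higher and 11.4% lower in THRB WT livers, and 9.09% and 9.64% in THRB KO livers. Srsf5, a splicing factor, was lower by 0.42 and 0.31 on the log2 scale, Tra2a was higher by 0.26 and 0.27, and Ddx5 differed between times (highest near ZT 12.1 in the fitted curve) without a dark-light difference (0.01 and 0.02). The same shares of all genes stand beside 9 immediate early genes, which respond to stress and handling. Of these 9, 2 were higher and 1 lower in the dark in THRB WT livers and 1 and 1 in THRB KO livers. Their summed level ranged from 91.2 to 186 CPM in the light and from 89.6 to 171 CPM in the dark in THRB WT mice, and its part in the heat shock pattern was not tested.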

How the data were processed

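RNA from the livers of 36 mice was sequenced by the authors as paired-end, non-directional poly-A libraries, aligned with HISAT2 to mm10 and counted per gene with featureCounts. Versions, annotation and the treatment of reads that match several genes are not given in the sources used here. The deposited values are raw counts per gene without normalization.

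Libraries were grouped by genotype and sampling time from their labels. Genes with 100 or more counts in all libraries together were kept (17994 of 54532). Counts were scaled by TMM and tested with edgeR 4.0.16 (quasi-likelihood, R 4.3.3, limma 3.58.1), with Benjamini-Hochberg adjustment over all tested genes and a threshold of 0.05. All 12 groups of genotype and time shared 1 estimate of the spread, genotype was tested with time as a factor, and rhythms with 24-h sine and cosine terms. Mesor, amplitude and peak time were compared by a joint cosinor on vst values (DESeq2 1.42.0), peak time only where both genotypes had a cosinor p under 0.01. Log2 CPM used a prior count of 2. Correlations used 100000 permutations (Python 3.11.15, numpy 2.4.6, scipy 1.17.1, pandas 2.3.3). The tests were tested on simulated data. Alternatives were DESeq2, its size factors in edgeR, filterByExpr, no filter, robust dispersion, vst for correlations, a replicate block, log2 CPM for the cosinor and leaving out each letter.

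Near-identical copies were sought with BLAST 2.17.0 (identity of 95% or more, covering 80% or more of the length and 200 bases). Promoter sequences were those of RefSeq. The genes named are the 10 members, the 3 genes most like and the 2 most unlike Cirbp and Hsph1 over group means, up to 3 genes per list past the threshold with the lowest p for time in THRB WT livers, and Arntl and Dbp. Members and lists were chosen with earlier results of these data known. The steps between times, the left-out set of 3 mice and the joint permutation of letters were chosen after seeing the data.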

Additional observations from a re-analysis of the deposited data

How the results depend on the processing

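For the members, 0 calls were made for genotype with time in the model or with times pooled, for the interaction, for genotype at each single time, and for the genotype difference of the dark-light contrast or of the rhythm, under all alternatives run. Dark-light calls numbered 8 in THRB WT livers (5 to 9 with a letter left out) and 9 in THRB KO livers (4 to 6). Rhythm calls in THRB KO livers numbered 10 (6 to 8). Steps called 4 members from ZT2 to ZT6 (1 to 2), 3 from ZT14 to ZT18 (0 to 4, and 5 without 3 mice), 6 from ZT18 to ZT22 (0 to 5, and 0 without 3 mice) and 1 from ZT22 to ZT2 (0 to 2, and 2 with DESeq2 or no filter). Mesor differed for 1 member (0 on log2 CPM, 0 to 1 with a letter left out), amplitude for 0 (up to 1 without letter a). Correlated pairs numbered 6 (0 to 1), and the promoter motif was in 1 member as 3 units and in 5 as 2 units. Fewer mice also mean fewer residual degrees of freedom, and other causes were not tested.

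The sign turned for values near 0, given as the range with a letter left out. For genotype these were Hsp90aa1 (-0.157 to 0.0127) and Hspb1 (-0.0296 to 0.110), and Cirbp without 3 mice (-0.0033). Rbm3 turned for dark-light in THRB WT livers (-0.261 to 0.0477), in THRB KO livers (-0.00099 to 0.0214, and -0.0200 without 3 mice) and from ZT10 to ZT14 (-0.0903 to 0.0453). Correlations that turned were Hspa1b with Hspe1 (-0.147 to 0.520) and with Hspb1 (-0.200 to 0.0324), and Cirbp with Rbm3 (-0.449 to 0.191). Of the other values for single genes and pairs, 476 kept direction and call, 38 lost and 2 gained the call, and 3 peak times moved.

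Over all genes, those differing between genotypes with time in the model numbered 171 in edgeR, 315 in DESeq2, 110 without 3 mice and 40 to 81 with a letter left out. Dark-light calls were 3941 in THRB WT (2159 to 2694) and 3370 in THRB KO livers (1369 to 2537). The labels do not say that mice with the same letter were paired. They do hold numbers, mostly close together between genotypes for the same time and letter and mostly far apart within a group. What these numbers stand for is not given, and the main tests did not use them. Deviations of mice with the same letter and time had r over 0.1 in 16 of 18 pairs, and 33 of 36 libraries correlated best with their own letter. With the letter as a replicate block, 387 genes differed between genotypes, with 0 members among them, and from ZT22 to ZT2 2 members passed.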
